A study of Homo sapiens with 18 samples.

Results

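The libraries described here come from H1299 cells that carried the hairpin shPPP2R2A-2 or the control hairpin shcon, 3 libraries of each, 6 of the 18 libraries of the series. H1299 is an established line of human large cell lung carcinoma. The shPPP2R2A-2 cells expressed 1 of 2 short hairpin RNAs against PPP2R2A, and the shcon cells a scrambled hairpin, both on the same H1299 background and grown in the same medium with no drug named in the labels. The other 12 libraries are H1299 cells with shPPP2R2A-1 and A549 cells with each of the 3 hairpins, 3 libraries per group. All of the expressed genes are described: of 57773 genes in the count table, 15972 had enough reads to be tested in H1299. The question was how the H1299 transcriptome differs with this hairpin, and how far its replicate 3 departs from the other 2.

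PP2A is a serine/threonine phosphatase built from a scaffold, a catalytic and a regulatory B subunit, and PPP2R2A encodes B55α, a B subunit that directs the enzyme to substrates in mitotic exit, replication and growth signaling. A short hairpin RNA is processed to a small interfering RNA that cleaves a fully matched mRNA. Its first bases can also pair, as the seed of a miRNA does, with short words in the 3′ UTR of other mRNAs, which is why 2 hairpins against 1 gene are used.

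PPP2R2A itself was lower in each shPPP2R2A-2 library than in any shcon library. Its level was 18.2, 17.6 and 14.4 CPM with shPPP2R2A-2, against 109, 77.8 and 87 CPM with shcon (CPM, counts scaled to a common library size, with sizes adjusted by TMM). The mean was 16.7 ± 2.04 CPM with shPPP2R2A-2 and 91.2 ± 15.9 CPM with shcon (SD, n = 3 each), so that 18.3% of the shcon level was left (log2 fold change -2.45, SE 0.21, adjusted p = 0.0017, at most 0.00976 with 1 library left out). Here and below an adjusted p comes from the quasi-likelihood test of edgeR, adjusted by Benjamini-Hochberg over all genes tested, a gene is called when it is under 0.05, and the last value is the highest of the 6 fits that each left out 1 of the 6 libraries. The hairpin shPPP2R2A-1 left less, with 7.31, 9.97 and 6.5 CPM, and the 2 hairpins differed by 1.08 on the log2 scale (shPPP2R2A-2 minus shPPP2R2A-1, edgeR adjusted p = 0.0073).

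The H1299 libraries held 35743287 to 69298905 counts each, and the lowest total was that of shPPP2R2A-2 replicate 3. Since no label tells if a replicate was its own culture, every p-value reflects library-to-library spread alone, and that spread could be technical. Of 8 genes chosen as markers of the H1299 line, 7 passed the filter on low counts. They summed to 2160 to 3120 CPM with shPPP2R2A-2 and 2790 to 3430 CPM with shcon. In the A549 libraries they summed to 3580 to 8160 CPM, so this sum does not mark H1299 against A549. The 18 genes that mark A549, of which 2 passed, summed to 63.2 to 101.0 CPM with shPPP2R2A-2 and 51.5 to 75.2 CPM with shcon, against 11700 CPM or more in each A549 library. Markers of leukocytes (2 of 15 passed) summed to 3.73 to 5.32 CPM with shPPP2R2A-2 and 3.55 to 4.01 CPM with shcon, with 6 of the 15 at 0 in every H1299 library. In bulk RNA, fewer cells of a type and less RNA per cell cannot be told apart.

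Replicate 3 of shPPP2R2A-2 stood apart from the other 2 libraries of its group. Of the 15972 genes, 1089 were at least 2-fold higher and 1502 at least 2-fold lower in it than the mean of replicates 1 and 2 (log2 CPM with a prior count of 2), 16.2% of genes in all. The same measure gave 1613 genes for shPPP2R2A-2 replicate 1, 811 for replicate 2 and 1753 for shcon replicate 1, and between 582 and 1122 for the other 5 H1299 libraries. The means that replicates 1 and 2 were set against include replicate 3, so their counts are in part set by it. Over genes, its log2 CPM correlated with those of its mates at r = 0.963 and 0.974, whereas the mates correlated with each other at 0.986. Its closest library of all was shcon replicate 1, at r = 0.975 (correlations across genes, which are not independent). On the first 2 principal components, which held 35.5% and 23.7% of the variance, replicates 1 and 2 lay at 58.9 and 38.7 on the second axis, and replicate 3 lay at -27.2 with the shcon libraries, whose values were -1.0 to -55.9. On the first axis, where the 3 shPPP2R2A-1 libraries lay at 34.5 to 64.7, replicate 3 was the library farthest from them, at -63.4.

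**Figure D1:**
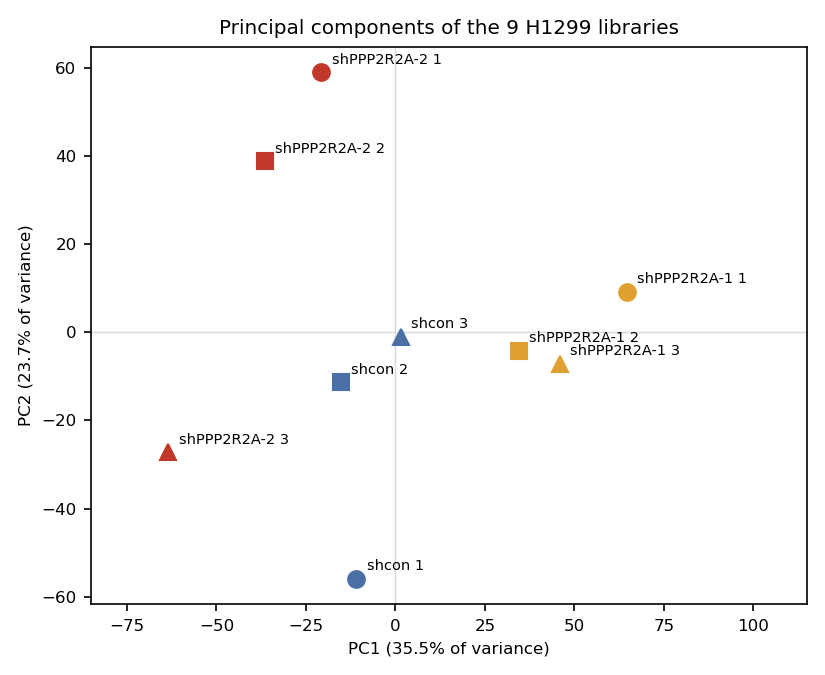
Principal components 1 (35.5% of variance) and 2 (23.7%) of log2 CPM of the 9 H1299 libraries, with color for the hairpin and shape for the replicate number. Replicate 3 of shPPP2R2A-2 lies at -63.4 on the first axis and at -27.2 on the second, where its mates lie at 58.9 and 38.7.

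The genes that set replicate 3 apart differed in length and base composition. Among 10124 genes that averaged 100 counts or more and had replicates 1 and 2 within 0.5 of each other on the log2 scale, 658 were 2-fold or more lower in replicate 3 than in its mates, and their longest transcripts had a median length of 7237 bases and a GC content of 40.3%. The 313 genes that were 2-fold or more higher had a median length of 1813.5 bases and a GC content of 63.0%, and over all 10124 genes the medians were 3466.5 bases and 47.1%. With genes in 5 equal bins of transcript length, the median difference of replicate 3 from its mates was 0.32 for the shortest and -0.58 for the longest transcripts on the log2 scale. In 5 bins of GC content it was -0.54 for the lowest and 0.63 for the highest. Bins of length and GC content held 38% of the variance of its differences, against 27.8% for replicate 1 and 8.38% for replicate 2 of the same hairpin. Replicate 1 of shcon departed the same way, with 21.3% of its variance in these bins and medians of 0.33 for the shortest and -0.46 for the longest transcripts. In shcon replicate 3 these bins held 27.9% of the variance, and both it and shPPP2R2A-2 replicate 1 departed the other way, with long transcripts higher. Each library was set against the mean of its mates, so a low value in 1 library makes its mates appear high. The opposite direction of these 2 libraries is therefore in part set by the measure and is no separate observation. The deviations of shPPP2R2A-2 replicate 3 and shcon replicate 1 from their group means correlated at r = 0.44 across genes. The part of RNA quality or library preparation in these differences was not tested.

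**Figure D2:**
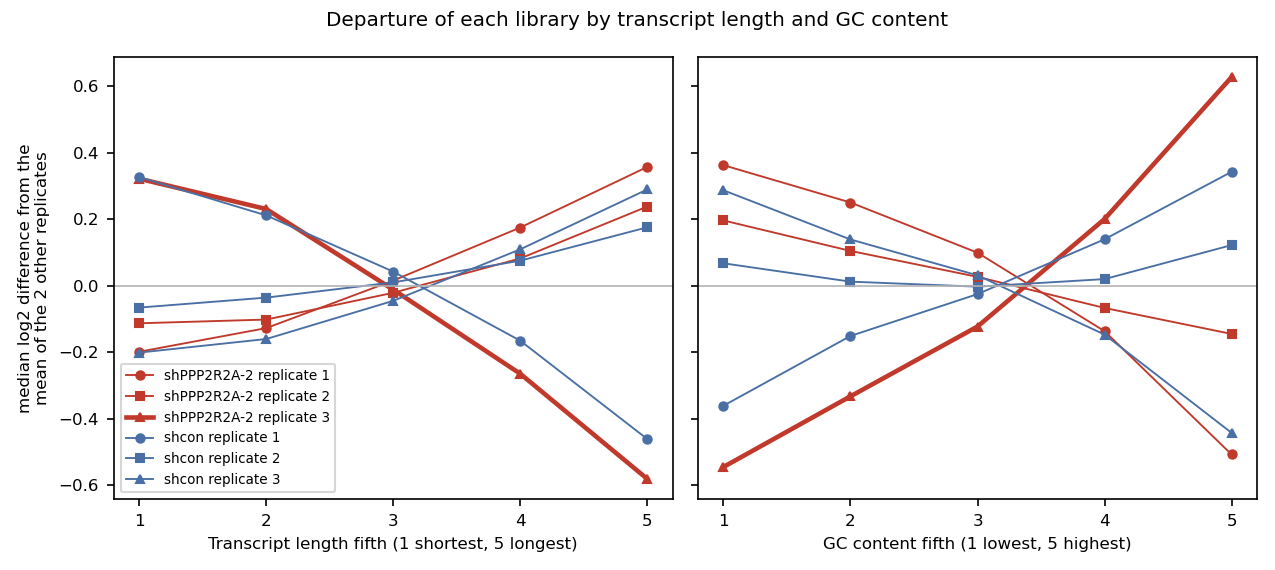
Median log2 difference of each library from the mean of the other 2 replicates of its group (y axis), in 5 equal bins of transcript length (left) and of GC content (right), for 3 shPPP2R2A-2 libraries (red) and 3 shcon libraries (blue). The thick line, shPPP2R2A-2 replicate 3, runs from 0.32 to -0.58 with length and from -0.54 to 0.63 with GC content, and shcon replicate 1 runs the same way.

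Single genes show the size of this departure. Among the same 10124 genes CRYBG3, a gene of the crystallin beta-gamma domain family, was the lowest, with 19, 15.8 and 1.51 CPM in replicates 1, 2 and 3. NBEAL1, a large BEACH domain protein, had 31.7, 26.1 and 4.01 CPM and KIAA0754 had 89.4, 65.9 and 12.6 CPM. KIAA0754, like ZBED6 in the same group, lies within another gene, and how reads of overlapping genes were shared is not given in the sources used here. The other low genes were CCDC144A, TMPPE, FRY and ABCC9, a subunit of ATP-sensitive potassium channels. In 7 of these 8 genes shcon replicate 1 was also lower than both other shcon libraries. CRYBG3, for example, had 1.68, 11.8 and 13.8 CPM in shcon replicates 1, 2 and 3. On the high side, SERPINA1, which encodes the protease inhibitor α1-antitrypsin, had 1.77, 2.0 and 8.45 CPM, and SIVA1, a proapoptotic adaptor, had 21.8, 27.5 and 79.3 CPM. The other high genes were GNB1L, C14orf80, RP11-304L19.5, NBL1 and THEM6, together with TP73. In 6 of the 8, shcon replicate 1 was the highest of the shcon libraries. Of the 16 genes, FRY was called between the hairpins: it had 3.39, 2.79 and 0.484 CPM with shPPP2R2A-2, against 0.064, 0.221 and 0.387 CPM with shcon (log2 fold change 3.27, edgeR adjusted p = 0.0443). The 3 shPPP2R2A-2 libraries do not overlap with shcon for FRY, but replicate 3 lies next to the highest shcon library.

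Across all genes, 219 were higher with shPPP2R2A-2 than with shcon and 274 lower, 1.37% and 1.72% of the 15972 tested. The 219 genes rose by a median of 1.21 on the log2 scale, 150 of them at least 2-fold, and the 274 fell by a median of 1.00, 137 of them at least 2-fold. Most were protein-coding (186 and 240). In every called gene the 3 shPPP2R2A-2 libraries lay outside the range of the shcon libraries. That alone held for 1654 genes above and 1675 genes below, 10.4% and 10.5% of those tested. At an unadjusted p under 0.05 there were 1544 higher and 1409 lower genes. The median log2 fold change of all genes was -0.01.

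The number of called genes depended on single libraries, and replicate 3 was the one of the 6 whose removal raised it. Without replicate 3, 730 genes were higher (4.44% of 16431 tested) and 487 lower (2.96%). These included 216 of the 219 and 268 of the 274. Leaving out replicate 1 gave 50 higher and 115 lower genes, and leaving out replicate 2 gave 34 and 76. Without shcon replicate 1 the numbers were 84 and 194, without shcon replicate 2 they were 35 and 97, and without shcon replicate 3 they were 17 and 70. With shPPP2R2A-2 replicate 3 and shcon replicate 1 left out, the libraries of each group in which long transcripts were lowest, 830 genes were higher and 781 lower. With all libraries kept and each library's trend on length and GC content taken out, 821 genes were higher (5.14%) and 1062 lower (6.65%), among them 218 of the 219 and 270 of the 274. Both of these alternatives were chosen after seeing the data.

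**Figure D3:**
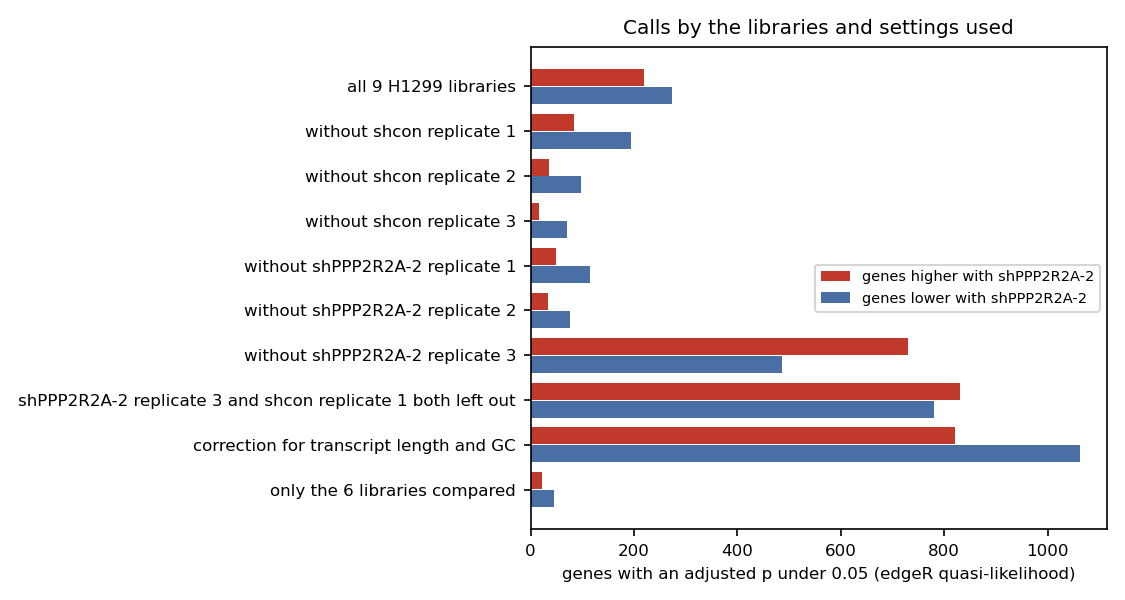
Number of genes called higher (red) and lower (blue) with shPPP2R2A-2 than with shcon in H1299 (x axis), for the fit of all 9 H1299 libraries and for fits with other libraries or settings. The fit without shPPP2R2A-2 replicate 3 calls 730 and 487 genes, against 219 and 274 with every library.

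The genes called without replicate 3 had values on the same side of shcon in most cases in replicate 3 too. Of the 716 genes called higher without it and tested with it, 580 (81.0%) lay above the shcon mean in replicate 3. Of the 487 called lower without it, 428 (87.9%) lay below. Over all genes tested, 48.95% lay above the shcon mean in replicate 3 and 51.05% below. The median difference of the higher genes from shcon was 0.47 in replicate 3, against 1.19 in replicate 1 and 0.94 in replicate 2. For the lower genes it was -0.68 in replicate 3, against -0.97 and -0.87. Replicates 1 and 2 and the 3 shcon libraries chose these genes, and replicate 3 is set against the same shcon libraries, so all of these values are a description.

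The 15 largest falls with at least 100 counts on average were led by PRX and PPP2R2A and included CPOX, SDC4, CLDN1, TIMELESS, TFRC, COX15 and BECN1. PRX, a scaffold protein of myelinating Schwann cells, had 0.685, 1.16 and 1.18 CPM with shPPP2R2A-2, against 5.95, 6.34 and 4.78 CPM with shcon (log2 fold change -2.50, SE 0.27, adjusted p = 0.00181, at most 0.0136 with 1 library left out). CPOX, coproporphyrinogen oxidase of the heme pathway, had 7.29, 8.83 and 7.43 CPM with shPPP2R2A-2, against 33.4, 37.8 and 45.3 CPM with shcon (log2 fold change -2.31, SE 0.19, adjusted p = 0.00155, at most 0.00976 with 1 library left out). COX15, which makes heme A for cytochrome oxidase, had 28.4, 32.7 and 25.9 CPM with shPPP2R2A-2, against 90.1, 100.5 and 92.6 CPM with shcon (log2 fold change -1.70, SE 0.16, adjusted p = 0.0017, at most 0.0105 with 1 library left out). TFRC, the transferrin receptor that brings iron into the cell, had 306, 237 and 185 CPM with shPPP2R2A-2, against 680.4, 722 and 1112 CPM with shcon (log2 fold change -1.79, SE 0.24, adjusted p = 0.00529, at most 0.0351 with 1 library left out). The groups did not overlap in any of these genes. Replicate 3 lay close to its mates for PRX, CPOX and COX15, and was the lowest of the 3 for TFRC.

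SDC4, CLDN1, BECN1 and TIMELESS were also among the largest falls. SDC4, a heparan sulfate proteoglycan of focal adhesions, had 27.2, 27.3 and 25.5 CPM with shPPP2R2A-2, against 101, 122 and 115 CPM with shcon (log2 fold change -2.08, SE 0.22, adjusted p = 0.0017, at most 0.0145 with 1 library left out). CLDN1, a tight junction protein, had 44.6, 61.2 and 49.1 CPM with shPPP2R2A-2, against 157, 232 and 217 CPM with shcon (log2 fold change -1.97, SE 0.20, adjusted p = 0.0017, at most 0.0112 with 1 library left out). BECN1, a subunit of the kinase complex that starts autophagosome formation, had 16.8, 24.6 and 17.2 CPM with shPPP2R2A-2, against 60.1, 67.5 and 63.6 CPM with shcon (log2 fold change -1.70, SE 0.20, adjusted p = 0.00239, at most 0.0148 with 1 library left out). TIMELESS, which protects the replication fork, had 44.8, 52.4 and 49.6 CPM with shPPP2R2A-2, against 139.6, 199 and 176 CPM with shcon (log2 fold change -1.81, SE 0.20, adjusted p = 0.00181, at most 0.0145 with 1 library left out). In all 4 genes the shPPP2R2A-2 libraries, replicate 3 included, lay close together and below every shcon library.

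The other falls were THOC7, a subunit of the THO complex of mRNA export (log2 fold change -1.80, SE 0.20, adjusted p = 0.00193, at most 0.0196 with 1 library left out), RILPL2 (log2 fold change -1.80, SE 0.23, adjusted p = 0.00422, at most 0.0322 with 1 library left out), and MRGBP, a subunit of the NuA4 histone acetyltransferase (log2 fold change -1.72, SE 0.23, adjusted p = 0.00529, at most 0.0376 with 1 library left out). RASGEF1A, an exchange factor for Ras family proteins, fell by 1.79 on the log2 scale (SE 0.29, edgeR adjusted p = 0.013), and its adjusted p was 0.0507 without shcon replicate 2. The calls of SNORA73B (log2 fold change -1.96, SE 0.41, adjusted p = 0.0299, at most 0.102 with 1 library left out) and METTL12 (log2 fold change -1.82, SE 0.42, adjusted p = 0.0437, at most 0.153 with 1 library left out) were lost without any 1 of several libraries. SNORA73B is a small nucleolar RNA within the host gene SNHG3, so that its reads can come from the host. Of the 15 falls, 12 stayed called in each of the 6 fits with 1 library left out. None lost its call without replicate 3.

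Many of the 15 largest rises were less even among the 3 libraries. LCP1, an actin-bundling protein of blood cells, had 9.03, 1.43 and 0.484 CPM with shPPP2R2A-2, against 0.0426, 0.0604 and 0.0644 CPM with shcon (log2 fold change 5.96, SE 1.06, adjusted p = 0.0181, at most 0.0815 with 1 library left out). In reads, these were 514, 83 and 18 with shPPP2R2A-2, against 2, 3 and 4 with shcon. The ratio of the summed counts, scaled by library totals, was 76.6 with a 95% interval of 40.1 to 168 that covers counting error only. Replicate 1 held most of the LCP1 reads, and replicate 3 the fewest. GCNT3, a mucin-type glycosyltransferase, had 10.4, 3.41 and 2.29 CPM with shPPP2R2A-2, against 0.213, 0.604 and 0.435 CPM with shcon (log2 fold change 3.68, SE 0.59, adjusted p = 0.0124, at most 0.0569 with 1 library left out). SPOCD1, known from piRNA-directed DNA methylation in mouse germ cells, had 14.2, 6.36 and 4.76 CPM with shPPP2R2A-2, against 0.789, 1.41 and 0.934 CPM with shcon (log2 fold change 3.02, SE 0.50, adjusted p = 0.0139, at most 0.0664 with 1 library left out). In all 3 genes replicate 1 was more than 2-fold above replicate 2, and replicate 3 was the lowest of the hairpin yet above every shcon library.

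PDCD1LG2, which encodes PD-L2, a ligand of the T cell receptor PD-1, had 18.5, 13.2 and 7.32 CPM with shPPP2R2A-2, against 2.0, 2.9 and 3.3 CPM with shcon (log2 fold change 2.25, SE 0.36, adjusted p = 0.013, at most 0.0555 with 1 library left out). F2RL2, a protease-activated receptor, had 25, 13.8 and 7.75 CPM with shPPP2R2A-2, against 1.85, 4.04 and 2.8 CPM with shcon (log2 fold change 2.42, SE 0.53, adjusted p = 0.0369, at most 0.129 with 1 library left out). AGTR1, the type 1 angiotensin receptor, had 6.68, 4.72 and 2.77 CPM with shPPP2R2A-2, against 1.54, 0.906 and 0.966 CPM with shcon (log2 fold change 2.06, SE 0.40, adjusted p = 0.023, at most 0.102 with 1 library left out). In these 3 receptor and ligand genes, too, replicate 1 was the highest and replicate 3 the lowest of the hairpin. ACOT1, an acyl-CoA thioesterase, had 26.4, 21.8 and 22.8 CPM with shPPP2R2A-2, against 5.14, 7.61 and 4.7 CPM with shcon (log2 fold change 2.02, SE 0.23, adjusted p = 0.00213, at most 0.0136 with 1 library left out). ACOT1 has a near-identical neighbor, ACOT2, and the split of reads between them is uncertain.

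BATF2, an AP-1 family transcription factor, had 37.8, 22.7 and 19.1 CPM with shPPP2R2A-2, against 10.6, 4.83 and 3.11 CPM with shcon (log2 fold change 2.10, SE 0.48, adjusted p = 0.0429, at most 0.151 with 1 library left out). CORO2B, an actin-binding coronin, had 16.1, 8.45 and 7.99 CPM with shPPP2R2A-2, against 2.24, 2.6 and 3.03 CPM with shcon (log2 fold change 2.05, SE 0.34, adjusted p = 0.0139, at most 0.061 with 1 library left out). ECM1, a secreted matrix glycoprotein, had 12, 7.03 and 5.54 CPM with shPPP2R2A-2, against 1.13, 2.78 and 2.09 CPM with shcon (log2 fold change 2.03, SE 0.38, adjusted p = 0.0211, at most 0.0834 with 1 library left out). These are called in the fit of all libraries and not in each fit with 1 left out. The remaining rises were PCNPP3, a pseudogene whose reads may belong to its parent gene (log2 fold change 3.52, SE 0.64, adjusted p = 0.0201, at most 0.0838 with 1 library left out), and the noncoding STXBP5-AS1 (log2 fold change 2.72, SE 0.43, adjusted p = 0.0107, at most 0.0505 with 1 library left out), RP1-151F17.2 (log2 fold change 2.52, SE 0.50, adjusted p = 0.0264, at most 0.0866 with 1 library left out) and RP4-794H19.1 (log2 fold change 2.07, SE 0.41, adjusted p = 0.0269, at most 0.111 with 1 library left out). STXBP5-AS1 is an antisense RNA, and whether reads were counted by strand is not given in the sources used here, so its reads cannot be told apart from those of the gene on the other strand. Of the 15 rises, ACOT1 alone stayed called in all 6 fits with 1 library left out. Leaving out shcon replicate 3 ended 11 of the 15 calls, shcon replicate 2 ended 10, replicates 1 and 2 of shPPP2R2A-2 ended 7 each, shcon replicate 1 ended 3, and replicate 3 of shPPP2R2A-2 ended 0.

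**Figure D4:**
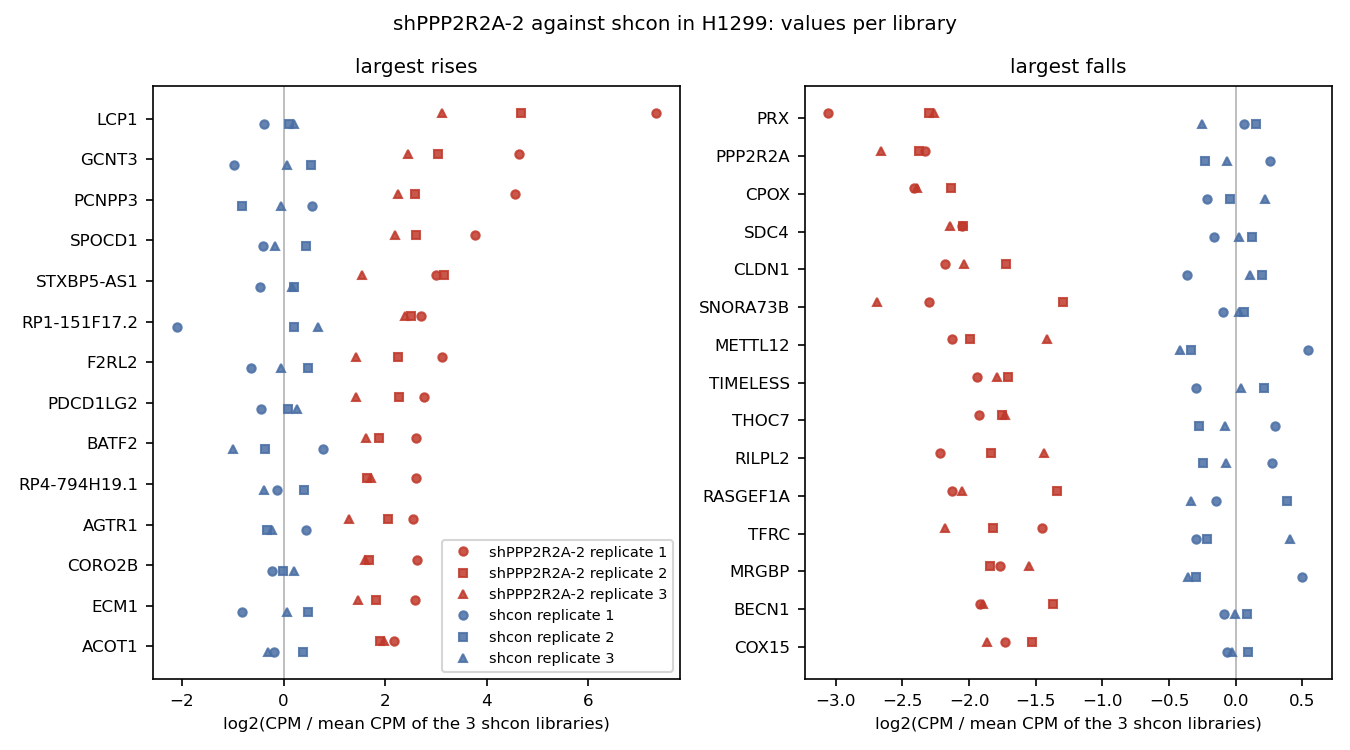
CPM of each library over the mean of the 3 shcon libraries, on a log2 axis, for the largest rises (left) and the largest falls (right) with shPPP2R2A-2 (red) against shcon (blue), with shape for the replicate. Many falls lie close together over the 3 shPPP2R2A-2 libraries, though SNORA73B spreads (1.19, 2.40 and 0.915 CPM). Many rises spread, with LCP1 at 9.03, 1.43 and 0.48 CPM, though ACOT1 does not (26.4, 21.8 and 22.8 CPM).

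The genes that fell often carried a common word in the 3′ UTR. Each of the 15889 7-letter words carried by at least 100 genes was ranked by the median log2 fold change of its carriers with shPPP2R2A-2 in A549, over 11887 genes with a 3′ UTR (longest of the GENCODE 29 basic transcripts) and values in both lines. The lowest median in A549, -0.35, was that of TGAGATA, carried by 1447 genes. Its carriers also had the lowest median of all words in the H1299 libraries, which were not used for the ranking, at -0.16, against -0.01 for all genes. With shPPP2R2A-1 in H1299 the word ranked 10160, at a median of 0.06. In H1299, 106 of 237 genes called lower (44.7%, 95% Wilson interval 38.5 to 51.1) carried it, against 15 of 180 called higher (8.33%) and 12.2% of all 11887 genes. The interval treats genes as independent draws, which genes of the same libraries are not, and leaves out the spread between libraries. Other settings moved the share to 28.9% (length and GC trend taken out) and to 65.6% (above a 1.5-fold change), outside the interval. The word was known from an earlier analysis of these data, so its rank is a description. Whether it matches the seed of shPPP2R2A-2 was not tested, since the hairpin's sequence is not given in the sources used here.

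The sites below show where the word stands in 3′ UTRs of called genes that fell, with 10 bases on each side, 5′ to 3′ on the mRNA strand, from GENCODE 29 transcripts (GRCh38), and with the word in capitals. 
CPOX: ttccaagtatTGAGATAagggaatata
CLDN1: aaatggacatTGAGATActatcattaa
TIMELESS: ttcctgcattTGAGATAgggttggaat
TFRC: cttttggcacTGAGATAtttattgttt
THOC7: ggtatgctctTGAGATAtttaaagttt
OAS3: aagtttttatTGAGATAcaagtcaata
ECT2: ttttgcaaatTGAGATAaggacagaaa
GINS1: gctgaatttcTGAGATAcacattttca
The window of CPOX is at chr3:98580390-98580416 (minus strand), that of CLDN1 at chr3:190308210-190308236 (minus strand), that of TIMELESS at chr12:56417192-56417218 (minus strand) and that of TFRC at chr3:196051058-196051084 (minus strand). That of THOC7 is at chr3:63834037-63834063 (minus strand), that of OAS3 at chr12:112972926-112972952 (plus strand), that of ECT2 at chr3:172820862-172820888 (plus strand) and that of GINS1 at chr20:25446524-25446550 (plus strand). CLDN1 carries 3 copies of the word, TFRC and PPP2R2A 2 each, and the other genes shown 1 each. Not every large fall carried it: PRX, SDC4, BECN1, COX15, MRGBP, RILPL2 and RASGEF1A did not. A match is a description of the letters and not a site of binding.

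Carriers have long 3′ UTRs (median 3341 bases, against 1361 for all), and long transcripts were low in replicate 3, so the carriers were compared within 5 equal bins of 3′ UTR length. In the bin of 467 to 1005 bases the 100 carriers had a median of -0.33, -0.43 and -0.29 against the shcon mean in replicates 1, 2 and 3, and the 2383 other genes had -0.05, -0.03 and 0.15. Carriers were lower than the other genes in every bin and in each of the 3 libraries. The difference was -0.28 to -0.10 in replicate 1, -0.40 to -0.15 in replicate 2 and -0.70 to -0.26 in replicate 3. In A549 the same difference with shPPP2R2A-2 was -0.43 to -0.23, and with shPPP2R2A-1 in H1299 it was -0.04 to 0.20. The word was chosen for its low median in A549, so the A549 difference follows from that choice and adds no further evidence. Without replicate 3 the pooled median of the carriers was -0.03, rank 555 of 15889, and the word stood in 32.2% of the 419 genes then called lower that have a 3′ UTR. With the trend on length and GC content taken out it stood in 28.9% of 980.

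**Figure D5:**
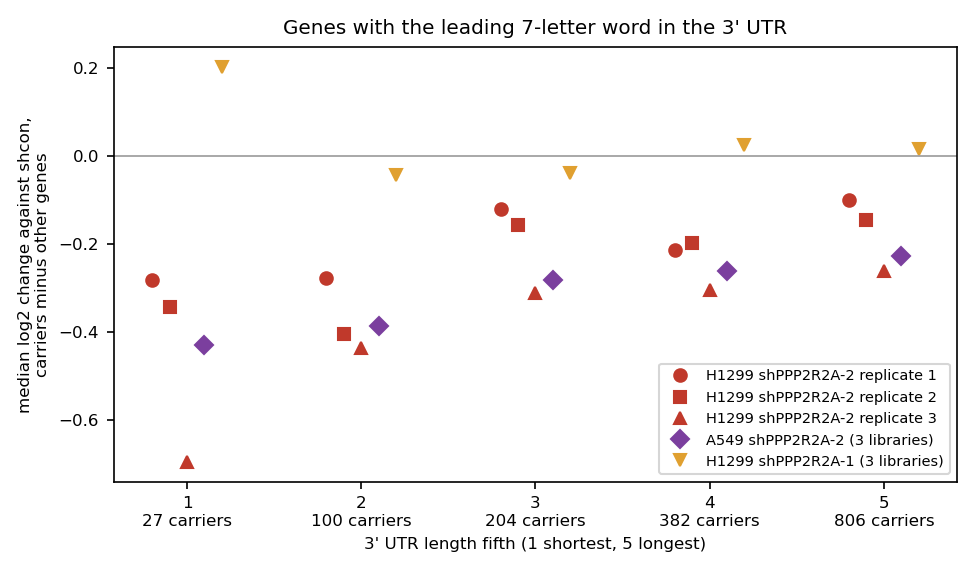
Median log2 change against shcon of the genes that carry the leading 7-letter word minus that of the other genes (y axis), in 5 equal bins of 3′ UTR length (x axis, with the number of carriers), for each shPPP2R2A-2 library of H1299 (red) and for the fits of shPPP2R2A-2 in A549 (purple) and shPPP2R2A-1 in H1299 (yellow). All shPPP2R2A-2 points lie below 0, from -0.70 to -0.10. The word was chosen in A549, so the low A549 points follow from that choice.

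The counts below of list members stand against 1.37% of all tested genes higher and 1.72% lower, 4.44% and 2.96% without replicate 3, and 5.14% and 6.65% with the length and GC trend taken out. Of 53 measured genes of DNA replication, 0 rose and 6 fell, with 47 not called, and the list's median was -0.39, against -0.01 over all genes. TIMELESS and its partner TIPIN, of the fork protection complex, both fell, TIPIN with a log2 fold change of -0.84 (adjusted p = 0.0269). GINS1, a subunit of the GINS complex of the replicative helicase, had 27.5, 27.7 and 24.4 CPM with shPPP2R2A-2, against 61.7, 55.8 and 63.4 CPM with shcon (log2 fold change -1.18, SE 0.15, adjusted p = 0.00381, at most 0.025 with 1 library left out). MCM6, of the helicase itself, had 131, 144 and 159 CPM with shPPP2R2A-2, against 255, 239 and 272 CPM with shcon (log2 fold change -0.82, SE 0.13, adjusted p = 0.0127, at most 0.068 with 1 library left out). POLE2, a subunit of polymerase ε, had a log2 fold change of -0.80 (adjusted p = 0.0419) and RFC3, a subunit of the clamp loader, a log2 fold change of -0.74 (adjusted p = 0.0429). The values of TIPIN, POLE2 and RFC3 were close to the threshold, and MCM10 and CDC6 missed it with log2 fold changes of -0.65 (adjusted p = 0.0518) and -0.53 (adjusted p = 0.0523). At an unadjusted p under 0.05, 0 were higher and 22 lower, against 9.67% higher and 8.82% lower over all genes. DESeq2 called 0 higher and 14 lower, where it called 4.36% and 3.5% of all genes. Without replicate 3, 21 of the 53 fell and 0 rose (median -0.54), and 21 fell with the length and GC trend taken out. The list's median was -1.22 with the same hairpin in A549, where 48 fell, and -0.17 with shPPP2R2A-1 in H1299.

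Of 44 mitosis genes 2 fell, ECT2, the exchange factor that drives cytokinesis (log2 fold change -1.28, SE 0.22, adjusted p = 0.0165, at most 0.0689 with 1 library left out), and BUB3 of the spindle checkpoint (log2 fold change -0.56, SE 0.12, adjusted p = 0.0343, at most 0.136 with 1 library left out), and the list's median was -0.22. Without replicate 3, 6 of the 44 fell. The list's median was -0.40 with shPPP2R2A-1 in H1299 and -1.54 with shPPP2R2A-2 in A549, where all 44 fell. BUB3 was no longer called with the length and GC trend taken out (adjusted p = 0.106). Of 45 genes of replication stress and repair 1 fell, FANCA, of the Fanconi anemia core complex (log2 fold change -0.71, SE 0.16, adjusted p = 0.0443, at most 0.165 with 1 library left out), with a median of -0.21. In the list of E2F and RB family genes, G1 cyclins and CDK inhibitors, E2F2 fell (log2 fold change -1.08, SE 0.20, adjusted p = 0.0218, at most 0.0899 with 1 library left out) and the other 26 were not called. The CDK inhibitor CDKN1A had a log2 fold change of 1.24 (adjusted p = 0.0684).

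Lists of growth and protein folding had negative medians. Cytosolic ribosomal protein genes had a median of -0.38, and all 78 measured had a negative fold change, but 2 passed the test, RPL17 (log2 fold change -1.10, SE 0.22, adjusted p = 0.0264, at most 0.0899 with 1 library left out) and RPS10 (log2 fold change -0.93, SE 0.19, adjusted p = 0.0282, at most 0.0958 with 1 library left out). Both have pseudogenes that can share their reads. In the 3 shPPP2R2A-2 libraries the ribosomal protein genes were a median of 0.44 higher in replicate 3 than in its mates, and their median was -0.56 without it, with 7 called lower. With shPPP2R2A-1 in H1299 their median was -0.325, close to that with shPPP2R2A-2. With shPPP2R2A-2 in A549 it was 0.27, where 0 rose and 1 fell. Of 35 genes of MYC and ribosome biogenesis, GNL3, a nucleolar GTPase, fell (log2 fold change -0.70, SE 0.16, adjusted p = 0.0409, at most 0.132 with 1 library left out), and NPM1, DKC1 and NCL missed the threshold with log2 fold changes of -0.77 (adjusted p = 0.0535), -0.53 (adjusted p = 0.0561) and -0.48 (adjusted p = 0.0596). Of 12 heat shock genes 3 fell. HSP90AB1 had 3338, 3538 and 3519 CPM with shPPP2R2A-2, against 6582, 5243 and 5456 CPM with shcon (log2 fold change -0.73, SE 0.13, adjusted p = 0.0201, at most 0.0777 with 1 library left out). HSP90AA1 (log2 fold change -0.66, SE 0.14, adjusted p = 0.0291, at most 0.135 with 1 library left out) and the mitochondrial chaperonin HSPD1 (log2 fold change -0.73, SE 0.14, adjusted p = 0.023, at most 0.0925 with 1 library left out) changed by a similar amount. The 2 HSP90 genes encode the abundant cytosolic HSP90 proteins.

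Of 7 measured members of a list of long noncoding RNAs 3 fell, SNHG12, SNHG1 and GAS5, which are known as hosts of small nucleolar RNAs, and the list's median was -0.78. SNHG12 had 6.69, 10.3 and 6.97 CPM with shPPP2R2A-2, against 25.6, 22.3 and 22.1 CPM with shcon (log2 fold change -1.54, SE 0.21, adjusted p = 0.00581, at most 0.0292 with 1 library left out). SNHG1 (log2 fold change -1.09, SE 0.20, adjusted p = 0.0213, at most 0.082 with 1 library left out) and GAS5 (log2 fold change -0.78, SE 0.18, adjusted p = 0.043, at most 0.126 with 1 library left out) also fell, and GAS5 was called in 0 of the 6 fits with 1 library left out. MALAT1 and NEAT1, of the same list of 7, had log2 fold changes of 0.16 (adjusted p = 0.912) and 0.02 (adjusted p = 0.988). Of 56 nuclear-encoded respiratory chain subunits SDHD fell (log2 fold change -0.71, SE 0.16, adjusted p = 0.041, at most 0.144 with 1 library left out). The 13 mitochondrially encoded mRNAs all had a positive fold change with a median of 0.73, and 0 were called, MT-ND5 having the smallest adjusted p with a log2 fold change of 0.86 (adjusted p = 0.0639). At an unadjusted p under 0.05 in edgeR's test 7 were higher, and DESeq2 called 1 higher. With shPPP2R2A-1 in H1299 their median was -0.46.

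The genes measured by the study in IFN signaling were mostly low or not called. CGAS (MB21D1 in the table), the DNA sensor upstream of STING, had 30.2, 25.2 and 25 CPM with shPPP2R2A-2, against 47.9, 37.2 and 51.3 CPM with shcon (log2 fold change -0.76, SE 0.19, adjusted p = 0.0537). The highest of the shPPP2R2A-2 libraries lay below the lowest shcon library, but the gene was not called. It was called lower with the length and GC trend taken out (edgeR adjusted p = 0.00878), an alternative chosen after seeing the data. With shPPP2R2A-2 in A549 the log2 fold change of CGAS was -0.72 (edgeR adjusted p = 0.0219). With shPPP2R2A-1 in H1299 it was 0.58 (edgeR adjusted p = 0.122). The PPP2R2A hairpins differed by -1.34 (shPPP2R2A-2 minus shPPP2R2A-1, edgeR adjusted p = 0.0017). IFIT2, an IFN-stimulated gene, had 2.83, 3.47 and 1.91 CPM with shPPP2R2A-2, against 2.07, 4.37 and 2.92 CPM with shcon (log2 fold change -0.18, SE 0.39, adjusted p = 0.859), with overlapping groups. CD274, which encodes PD-L1, had 27.8, 19.2 and 18.2 CPM with shPPP2R2A-2, against 13, 13.7 and 21 CPM with shcon (log2 fold change 0.45, SE 0.24, adjusted p = 0.356), also with overlap. CCL2 had 0 reads in every H1299 library. CCL5, CXCL10, MX1, IFNB1 and IFNA1 had 0 to 2 reads in each shPPP2R2A-2 and shcon library, so that no difference was detectable at this depth.

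Of 30 measured IFN-stimulated genes 1 rose and 1 fell, 21 had a positive fold change, and the median was 0.21. At an unadjusted p under 0.05 in edgeR's test 7 of the 30 were higher and 1 lower, against 9.67% and 8.82% of all genes. DESeq2 called 5 higher and 1 lower, where it called 4.36% and 3.5% of all genes. UBE2L6, the conjugating enzyme of ISG15, had 20.6, 19.3 and 22.6 CPM with shPPP2R2A-2, against 9.7, 10.1 and 11.3 CPM with shcon (log2 fold change 1.01, SE 0.18, adjusted p = 0.0192, at most 0.0783 with 1 library left out). OAS3, a sensor of double-stranded RNA that carries the word above, had 5.89, 11.7 and 8.8 CPM with shPPP2R2A-2, against 19.8, 31.5 and 28.9 CPM with shcon (log2 fold change -1.60, SE 0.32, adjusted p = 0.0257, at most 0.0925 with 1 library left out). IFIT3 missed the threshold with a log2 fold change of 0.93 (adjusted p = 0.052), and without replicate 3 it was called, with 5 of the 30 higher and 1 lower. Of the type I and type III IFN genes IFNE alone passed the filter, with a log2 fold change of 2.15 (adjusted p = 0.0541), and it was called without replicate 3 (adjusted p = 0.0302). None of 20 cGAS-STING and IFN signaling genes, CGAS included, was called by edgeR's test with all libraries and no correction, nor were any of 24 NF-kB cytokines and regulators. In each of these lists 1 gene was higher and 1 lower at an unadjusted p under 0.05, and DESeq2 called 1 lower gene in the list of cGAS-STING and IFN signaling and 0 in the NF-kB list. Of 19 genes of MHC class I presentation HLA-E fell (log2 fold change -0.90, SE 0.20, adjusted p = 0.0365, at most 0.136 with 1 library left out), and of 9 immune checkpoint ligands PDCD1LG2 rose, with a positive fold change in all 9 and a median of 0.45.

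Among integrin, mesenchymal and matrix protease genes the calls were rises. ITGA5, the α5 subunit of the fibronectin receptor, had 479, 276 and 299 CPM with shPPP2R2A-2, against 88, 107 and 90.4 CPM with shcon (log2 fold change 1.88, SE 0.21, adjusted p = 0.00193, at most 0.0116 with 1 library left out). Of 25 integrin and laminin genes it was the 1 called. Of 27 matrix proteases and inhibitors 2 rose, MMP14 (log2 fold change 1.05, SE 0.20, adjusted p = 0.0222, at most 0.0838 with 1 library left out), a membrane-bound collagenase, and ADAM19 (log2 fold change 0.92, SE 0.20, adjusted p = 0.0377, at most 0.126 with 1 library left out), and the list's median was 0.45. Of 22 mesenchymal genes 2 rose, SPARC (log2 fold change 1.52, SE 0.27, adjusted p = 0.0171, at most 0.0815 with 1 library left out) and COL1A1 (log2 fold change 1.71, SE 0.39, adjusted p = 0.0419, at most 0.148 with 1 library left out). COL1A1 is also a fibroblast marker, and the 10 fibroblast markers, of which 2 passed the filter (COL1A1 and PDGFRB) and 0 were at 0 throughout, summed to 3.97 to 7.58 CPM with shPPP2R2A-2 and 1.29 to 2.07 CPM with shcon. The 9 endothelial markers, of which 3 passed, summed to 2.71 to 4.70 CPM with shPPP2R2A-2 and 0.974 to 1.78 CPM with shcon. The part of either in the result was not tested. Without replicate 3, 6 of the 22 mesenchymal genes and 7 of the 27 protease genes rose. Of 12 epithelial genes CLDN1 fell and JUP, plakoglobin of desmosomes and adherens junctions, rose (log2 fold change 1.56, SE 0.28, adjusted p = 0.0189, at most 0.0815 with 1 library left out).

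Single members of the other lists were called. BIK, a proapoptotic BH3-only protein, had 2.42, 2.78 and 3.77 CPM with shPPP2R2A-2, against 0.618, 0.926 and 0.773 CPM with shcon (log2 fold change 1.94, SE 0.30, adjusted p = 0.0094, at most 0.052 with 1 library left out). TNFRSF10B, the TRAIL receptor DR5, had 46.4, 49.9 and 37 CPM with shPPP2R2A-2, against 86.1, 106 and 112 CPM with shcon (log2 fold change -1.19, SE 0.16, adjusted p = 0.00567, at most 0.0328 with 1 library left out). RBMS3, from the YAP target list, rose (log2 fold change 1.19, SE 0.27, adjusted p = 0.0419, at most 0.155 with 1 library left out), as did the neural tubulin TUBB3 (log2 fold change 1.07, SE 0.20, adjusted p = 0.0217, at most 0.0958 with 1 library left out). Of the NRF2 targets AKR1B10 rose (log2 fold change 2.51, SE 0.48, adjusted p = 0.023, at most 0.0925 with 1 library left out) and GCLM, a subunit of the enzyme that starts glutathione synthesis, fell (log2 fold change -1.02, SE 0.24, adjusted p = 0.0468, at most 0.161 with 1 library left out). Of 21 polyadenylation-independent histone genes 2 rose and 19 were not called. The 2 were HIST1H2AG (log2 fold change 1.37, SE 0.26, adjusted p = 0.0219, at most 0.0838 with 1 library left out) and HIST1H2BJ (log2 fold change 1.03, SE 0.24, adjusted p = 0.0452, at most 0.148 with 1 library left out). At an unadjusted p under 0.05 in edgeR's test 9 of the 21 were higher and 1 lower, and DESeq2 called 5 higher and 0 lower. In replicate 3 the list was a median of 0.41 higher than in its mates. How these reads arose with an mRNA kit was not tested. Of the other PP2A subunits and regulators, 29 measured, SET, an inhibitor of PP2A, fell (log2 fold change -0.61, SE 0.14, adjusted p = 0.0385, at most 0.137 with 1 library left out), and no other subunit was called. The cancer-testis antigens MAGEA3 (log2 fold change -0.94, SE 0.15, adjusted p = 0.0132, at most 0.0613 with 1 library left out), MAGEA12 (log2 fold change -0.83, SE 0.14, adjusted p = 0.0152, at most 0.0703 with 1 library left out) and MAGEA6 (log2 fold change -0.79, SE 0.15, adjusted p = 0.023, at most 0.0899 with 1 library left out) fell. These genes are closely similar copies on the X chromosome, and the split of reads between them is uncertain. In all, 25 of the 36 lists had a called gene. Since 1.37% of all tested genes were higher and 1.72% lower, a list of many genes can hold a call at that share alone. Whether the number of lists exceeds it was not tested. The 11 without one included the lists of cholesterol synthesis, the unfolded protein response, hypoxia and glycolysis, TGF-beta targets, ERK feedback, Wnt targets and MondoA, and without replicate 3 the number without a call was 3.

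The hairpins against PPP2R2A differed from each other in more genes than shPPP2R2A-2 differed from shcon. In a direct test, 1514 genes were higher and 1081 lower with shPPP2R2A-2 than with shPPP2R2A-1 (9.48% and 6.77% of 15972). The other hairpin against shcon had 129 genes higher and 308 lower (0.808% and 1.93%), and the 2 comparisons share their shcon libraries. Of the 12 genes with the largest differences between the hairpins, all stayed called in each of 6 fits with 1 library left out and under the block on replicate number. SGK1, a serum- and glucocorticoid-induced kinase, had 30.5, 52.6 and 37.8 CPM with shPPP2R2A-2, against 287, 207 and 219 CPM with shPPP2R2A-1 (log2 difference -2.56, SE 0.24, adjusted p = 0.000373), and 51.9, 80.0 and 62 CPM with shcon. PLK2, a polo-like kinase, had 53.1, 55.8 and 49.9 CPM with shPPP2R2A-2, against 375, 226 and 188 CPM with shPPP2R2A-1 (log2 difference -2.31, SE 0.24, adjusted p = 0.000479), and 110.3, 93 and 85.2 CPM with shcon. In both genes the shPPP2R2A-1 libraries stood above all others. AMER1, an inhibitor of Wnt signaling, had the same order, with a log2 difference of -2.14, SE 0.23, adjusted p = 0.000522.

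CPOX, TFRC and RASGEF1A were lower with shPPP2R2A-2 than with either other hairpin. CPOX had 31.5, 36.4 and 40.7 CPM with shPPP2R2A-1, beside the shcon level given above (log2 difference between the PPP2R2A hairpins -2.21, SE 0.19, adjusted p = 0.000262). TFRC had 1178, 885 and 1162 CPM with shPPP2R2A-1 (log2 difference -2.15, SE 0.24, adjusted p = 0.000661). On the high side, CORO2B had 0.911, 0.798 and 0.466 CPM with shPPP2R2A-1, below the shcon libraries (log2 difference 3.92, SE 0.37, adjusted p = 0.000373). CCDC92 (3.37, SE 0.39, adjusted p = 0.000708), NGEF (3.37, SE 0.38, adjusted p = 0.000645) and C12orf68 (3.40, SE 0.37, adjusted p = 0.000526) were likewise above shcon with shPPP2R2A-2 and below it with shPPP2R2A-1 by their means. SPOCD1 (4.33, SE 0.54, adjusted p = 0.000966) and LCP1 (5.88, SE 1.04, adjusted p = 0.00509) were the largest differences on that side.

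The same hairpin was also used in A549, a lung adenocarcinoma line, with 6 libraries of its own. Of the 219 genes that rose in H1299, 205 were tested in A549, and 122 of them (59.5%) rose there too, where 9.48% of 14584 genes tested in both lines rose. These 122 were 8.83% of the 1382 that rose in A549. Of the 273 genes that fell in H1299 and were tested in A549, 196 (71.8%) fell there, where 11.1% of the genes did. These were 12.2% of the 1612 that fell in A549. In the other direction, 4 of the 205 fell and 0 of the 273 rose. The median log2 fold change of the risen genes was 0.96 in A549, against -0.04 over all genes, and that of the fallen genes -0.94. With shPPP2R2A-1 in H1299, the same genes had medians of 0.05 and -0.02, in a comparison that shares the shcon libraries. Single genes departed from these medians. By edgeR's test PPP2R2A, MAGEA6 (log2 fold change -1.75, adjusted p = 0.000466) and MAGEA3 (-1.68, adjusted p = 0.000487) fell with shPPP2R2A-1 too. ADAM19 (1.12, adjusted p = 0.0187) and AKR1B10 (2.31, adjusted p = 0.0313) rose with both hairpins. CORO2B (-1.87, adjusted p = 0.024) and C12orf68 (-1.78, adjusted p = 0.0285) fell with shPPP2R2A-1 instead. In A549, CPOX had a log2 fold change of -1.84, TFRC -2.51, THOC7 -1.87, COX15 -1.79 and TIMELESS -2.79, and each was called by edgeR there.

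Tested directly, the response to shPPP2R2A-2 differed between the lines for few of 18827 genes: it was higher in H1299 than in A549 for 65 (0.345%) and lower for 56 (0.297%). Of the 219 and 274 genes called in H1299, 15 and 5 were among them. DESeq2 called 345 and 327 genes for this difference, and edgeR 3 to 149 and 4 to 102 with 1 library left out. A small number of calls therefore does not show that the lines responded alike. GCNT3 had the largest difference on the high side, 4.08, SE 0.61, adjusted p = 0.00785 on the log2 scale. Its A549 level was 178, 186 and 264 CPM with shPPP2R2A-2, against 210.2, 236 and 342 CPM with shcon, far above its level in H1299. MMP14 had 0.628, 0.424 and 0.411 CPM with shPPP2R2A-2, against 0.849, 3.42 and 1.21 CPM with shcon in A549 (log2 difference between the lines 3.02, SE 0.53, adjusted p = 0.0195). E2F2 fell less in H1299 than in A549 (log2 difference 1.80, edgeR adjusted p = 0.0307), and for TIMELESS the difference of 1.05 was not called (edgeR adjusted p = 0.0848).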

How the data were processed

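Bulk RNA-Seq libraries (stranded mRNA kit, per the labels) were read as deposited. The authors deposited counts of reads per gene, not normalized, on GRCh37 (hg19), and the submitters' processing notes list HTSeq 0.11.2, STAR 2.7.3a, Bowtie2, Cufflinks 2.2.1, DESeq2, cutadapt 2.5 and FastQC 0.11.8 without role or order. The deposited table also holds a signal that the authors made by dividing counts by 1 size factor per library, which was used only to check these factors (equal to recomputed median-ratio factors). Every column belonged to a sample of the series. No entry lacked a gene.

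The 9 H1299 libraries were fitted together with edgeR 4.0.16 (R 4.3.3): filterByExpr, TMM, quasi-likelihood fit with robust shrinkage, Benjamini-Hochberg adjustment and a threshold of 0.05. A fit of all 18 libraries tested the difference between the lines. SE is the log2 fold change over the root of F. Replicates differed by more than sampling noise (mean chi-square per gene 24.1 or more in H1299), so none was a copy. Transcript length, GC content and 3′ UTRs came from the longest basic transcripts of GENCODE 29, and 97.4% of tested genes had length and GC content. Python 3.11.15, numpy 2.4.6 and pandas 2.3.3 made the tables. Scripts were tested on simulated data.

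Genes named in the text are PPP2R2A, genes the study measured by qPCR, the 15 largest rises and falls (mean of at least 100 counts, no overlap), up to 4 members of each list, the 8 highest and 8 lowest of replicate 3, and the 6 largest differences per direction between hairpins and between lines. Members that narrowly missed the threshold and other single genes with their values were named after these were seen. Members and lists were chosen with earlier results of these data known. The alternatives were DESeq2 1.42.0, median-ratio size factors, no filter, no robust shrinkage, a replicate block, a 1.5-fold minimum, only 6 or all 18 libraries, each library left out, and, after seeing the data, a correction for length and GC content (splines with 4 degrees of freedom) and other sets of libraries. Same-numbered deviations correlated at 0.39, 0.20 and 0.20 between shPPP2R2A-2 and shPPP2R2A-1, and not throughout between shPPP2R2A-2 and shcon. No label says whether same-numbered libraries were paired. The main fit, that of the hairpin comparison included, had no block on replicate number, and the block is an alternative. A gene among the largest rises is counted but not reported by name here.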

Additional observations from a re-analysis of the deposited data

Results flagged for a closer look

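The response to shPPP2R2A-2 differed between H1299 and A549, by the test of the difference itself, in 12 genes with the largest differences that could be named. Values are log2 fold changes in H1299 minus those in A549, so their sign is not the direction of change in H1299. In H1299 itself, GCNT3, MMP14, IL6R, MPP4 and CEND1 were called, all higher with shPPP2R2A-2. Not called there were ACOX2, DSCR8, IL13RA2, ANKRD19P, ERBB3, RAB39A and SLC13A3. For the last 3 of these the H1299 log2 fold changes were 0.25, -0.22 and -0.32 (edgeR adjusted p = 0.618, 0.768 and 0.667). Of the 12, 6 were above 0: ACOX2 (2.45, SE 0.46, adjusted p = 0.021), ERBB3 (2.54, SE 0.50, adjusted p = 0.0249), IL6R (2.67, SE 0.46, adjusted p = 0.0184), MMP14 (3.02, SE 0.53, adjusted p = 0.0195), RAB39A (4.01, SE 0.88, adjusted p = 0.0421) and GCNT3 (4.08, SE 0.61, adjusted p = 0.00785). IL6R, the receptor of IL-6, had 22.2, 12.8 and 11 CPM with shPPP2R2A-2 and 4.01, 4.81 and 5.44 CPM with shcon in H1299, and 7.62, 7.78 and 12.6 CPM with shPPP2R2A-2 and 16.6, 12.7 and 23.3 CPM with shcon in A549. Its level was above shcon in H1299 and below it in A549, without overlap in either line.

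The other 6 were below 0: MPP4 (-4.27, SE 0.84, adjusted p = 0.0253), CEND1 (-4.34, SE 0.76, adjusted p = 0.0203), SLC13A3 (-4.71, SE 0.89, adjusted p = 0.021), DSCR8 (-5.26, SE 1.14, adjusted p = 0.0391), IL13RA2 (-5.43, SE 1.02, adjusted p = 0.021) and ANKRD19P (-7.83, SE 1.11, adjusted p = 0.00569). Of these, MPP4, SLC13A3, DSCR8, IL13RA2 and ANKRD19P had 0, 1 or 2 reads in each A549 shcon library, so that the size of the fitted difference depends on the prior count and is no measured fold. The same holds for RAB39A, which had 1 read in each A549 shPPP2R2A-2 library. CEND1, a neuronal protein of cell cycle exit, had 3.18, 7.88 and 11.3 CPM with shPPP2R2A-2 and 2.69, 2.41 and 1.61 CPM with shcon in H1299, and 11.3, 13.4 and 14.7 CPM with shPPP2R2A-2 and 0.318, 0.0756 and 0.163 CPM with shcon in A549. Of the 12 genes, all stayed called without H1299 shPPP2R2A-2 replicate 3, and ANKRD19P and GCNT3 stayed called in each of 12 fits with 1 library left out. The highest adjusted p of edgeR's test over those fits was 0.131, for RAB39A without A549 shPPP2R2A-2 replicate 2.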

How the results depend on the processing

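Of 71 genes named by rule for shPPP2R2A-2 against shcon (FRY, POLE2 and RFC3 are not among them), 68 were called, and none of the 68 reversed its direction under the alternatives run. IFIT2, not called, changed sign without shcon replicate 2, without shPPP2R2A-2 replicate 3, and with shPPP2R2A-2 replicate 2 as the only hairpin library. A 1.5-fold minimum ended the calls of 52, the fit of only the 6 libraries 49, and leaving out 1 library ended from 1 (shPPP2R2A-2 replicate 3) to 46 (shcon replicate 3). The counts of 219 higher and 274 lower genes became 652 and 517 with no filter on low counts, 821 and 1062 with the length and GC correction, 705 and 559 with DESeq2, 6 and 32 above a 1.5-fold change, 22 and 45 in a fit of only the 6 libraries, and 414 and 225 with all 18. With shPPP2R2A-2 replicate 3 and shcon replicate 1 left out they were 830 and 781. With replicate 1 as the only hairpin library they were 310 and 138, with replicate 3 22 and 110, and with replicate 2 0 and 0, where 1233 and 1102 genes had an unadjusted p under 0.05 in edgeR's test, the lone library being assumed to vary like the other groups. With 1 library left out the counts ranged from 17 to 730 and from 70 to 487.

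For shPPP2R2A-2 against shPPP2R2A-1 the counts were 2464 and 2207 with the correction, 2459 and 2234 with those 2 libraries left out, and 571 to 1629 and 414 to 1163 with 1 library left out. For H1299 minus A549 they were 473 and 338 with no filter, 422 and 243 with the correction, 345 and 327 with DESeq2, and 3 to 149 and 4 to 102 with 1 library left out. The share of genes called lower that carry the word was 28.9% with the correction, 65.6% above a 1.5-fold change, 61.9% in the fit of 6 libraries and with replicate 3 as the only hairpin library, 32.0% with the 2 libraries left out, and 32.2% to 53.3% with 1 left out. Of genes with a mean of at least 100 counts, 528 were 2-fold higher and 814 lower in replicate 3 than in its mates. The cause of these changes was not tested.

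The deviations of same-numbered shPPP2R2A-2 and shcon libraries correlated at -0.16, 0.40 and -0.43, so these were not read as paired. Those of shPPP2R2A-2 and shPPP2R2A-1 correlated at 0.39, 0.20 and 0.20, and those of shPPP2R2A-1 and shcon at 0.23, 0.24 and 0.14. Blocking on that number gave 195 genes higher and 194 lower, of which 140 and 182 were also called without it, and 16 of the 68 genes lost their call, GCLM among them. The block gave 1551 and 1013 genes between the PPP2R2A hairpins, with all 12 named genes still called, and 38 and 49 between the lines, with 9 of 12 still called (not ACOX2, DSCR8 and RAB39A). Differences in low-count genes are limited by the depth of replicate 3, 35743287 counts.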
